A study of Mus musculus with 10 samples.

Results

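The core circadian clock of these brown adipocytes was read as the messenger RNA of 10 genes: the positive arm Arntl, Clock and Npas2, and the negative arm Per1, Per2, Per3, Cry1, Cry2, Nr1d1 and Nr1d2. The genes were taken by symbol and not by a cutoff on their values, but the set was chosen with earlier results of these data known. All 10 were found among the 24640 symbols of the deposited count table, and all 10 passed the filter on low counts that left 15212 genes for testing. Their counts ran from 22 in a library, for Npas2, to 4653, for Per3.

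The clock is a feedback loop of transcription. The protein of Arntl, BMAL1, pairs with CLOCK or its relative NPAS2, binds E-box sequences and switches on the Per, Cry and Nr1d genes. PER and CRY proteins then block that pair, while the nuclear receptors made from Nr1d1 and Nr1d2 (REV-ERB alpha and beta) bind RORE sequences and repress Arntl, so that Arntl and Nr1d1 messages run in opposite phase over a day. In brown fat REV-ERB alpha is also known as a repressor of the thermogenic gene Ucp1, and cAMP signalling induces Per1 in many tissues.

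The libraries are RNA sequencing of brown adipocytes of C57BL/6 mice, in 5 groups of 2. Cells had received DMSO, the solvent control, or BML-260, known as an inhibitor of the phosphatase JSP-1 (Dusp22), for 1 day or 3 days, or ISO, listed at 1 day and not spelled out in the labels. Doses, the hour of collection, medium changes, and whether the cells were primary cultures or a line were not given in the sources used here, so time in culture, clock phase and hour of collection cannot be told apart. Nothing in the labels tells if both libraries of a group were grown separately. The p-values therefore cover the spread among these libraries alone, and that spread may be technical.

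Totals were 16955918 to 21185675 counts per library, and log2 CPM (counts scaled to library size) of the 2 libraries of a group correlated across genes with r of 0.994 to 0.995. Of the listed brown adipocyte markers, Fabp4 stood at 4335 to 10427 CPM and Adipoq at 448 to 1389 CPM over the group means. Ucp1 stood at 5.57 to 31.7 CPM over the group means, and Dio2 was under 1 CPM. Whether these levels set brown apart from other adipocytes was not tested. Markers of endothelial cells summed to at most 1.52 CPM, those of skeletal muscle to at most 1.53 CPM and those of macrophages to at most 7.23 CPM, with Adgre1, Ptprc, Myod1 and Myog not among the symbols. Preadipocyte and fibroblast markers were abundant and moved with the groups, and their sums over the 9 symbols found are given beside the comparisons (Dpp4 was not among the symbols). In bulk RNA, fewer cells of a type and less RNA per cell cannot be told apart.

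The sequences through which the loop is wired were looked for in the RefSeq promoter windows (GRCm38.p6, 250 bases before to 50 after a start), which held 13 windows for 9 of the 10 genes and none for Per2. The matches shown are those of clock motifs, each within 30 bases read 5′ to 3′ on the gene's strand with the motif in capitals. The motifs, searched on both strands, were the E-box CACGTG, its variant CACGTT, which reads AACGTG on the other strand, the RORE core TAGGTNA, the D-box TTANGTAA and the cAMP response element TGACGTCA.
Arntl, RORE core at chr7:113207494-113207523, plus strand: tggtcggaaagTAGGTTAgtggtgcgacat
Arntl, RORE core at chr7:113207530-113207559, plus strand: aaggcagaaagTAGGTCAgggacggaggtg
Per1, E-box at chr11:69098771-69098800, plus strand: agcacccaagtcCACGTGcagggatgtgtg
Cry1, E-box variant and E-box at chr10:85185106-85185135, minus strand: gaAACGTGaggtgccggtggtCACGTGggg
Cry2, E-box variant at chr2:92434218-92434247, minus strand: acacatggtgggAACGTGagggggcggagc
Nr1d1, E-box variant at chr11:98775388-98775417, minus strand: cgcacagatctcAACGTGccggctgctgga
Per3, D-box at chr4:151044852-151044881, minus strand: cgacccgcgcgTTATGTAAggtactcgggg
Per3, D-box at chr4:151044805-151044834, minus strand: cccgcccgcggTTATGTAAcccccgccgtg
The RORE core, the sequence bound by REV-ERB and ROR proteins, was in 8.29% of all 32851 windows, the E-box in 7.15%, its variant in 4.68%, the D-box in 2.32% and the cAMP response element in 1.79%. Among the 13 windows of the clock genes 2, 2, 3, 1 and 0 held them, in that order. The 2 with the RORE core are overlapping windows of Arntl that share a match. A pair of matches was found at the Arntl start (RORE) and upstream of Per3 (D-box). These matches describe the letters of the windows and are not measured binding sites.

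Levels are compared between genes per length, as CPM per kilobase of exon (GENCODE M21, GRCm38). With DMSO at 1 day Per3 was the most abundant clock message at 21.9 CPM per kilobase, ahead of Nr1d2 at 14.7 and Cry2 at 12.0. Per1 stood at 7.68, Cry1 at 6.81, Clock at 5.71 and Per2 at 5.12. Nr1d1 at 1.75, Arntl at 1.66 and Npas2 at 0.396 CPM per kilobase were the scarcest, so Clock was more abundant than its relative Npas2 by this measure. With BML-260 at 3 days Per1 had 24.2 ± 0.81 and Per3 20.5 ± 0.71 CPM per kilobase (SD, n = 2 each).

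**Figure D1:**
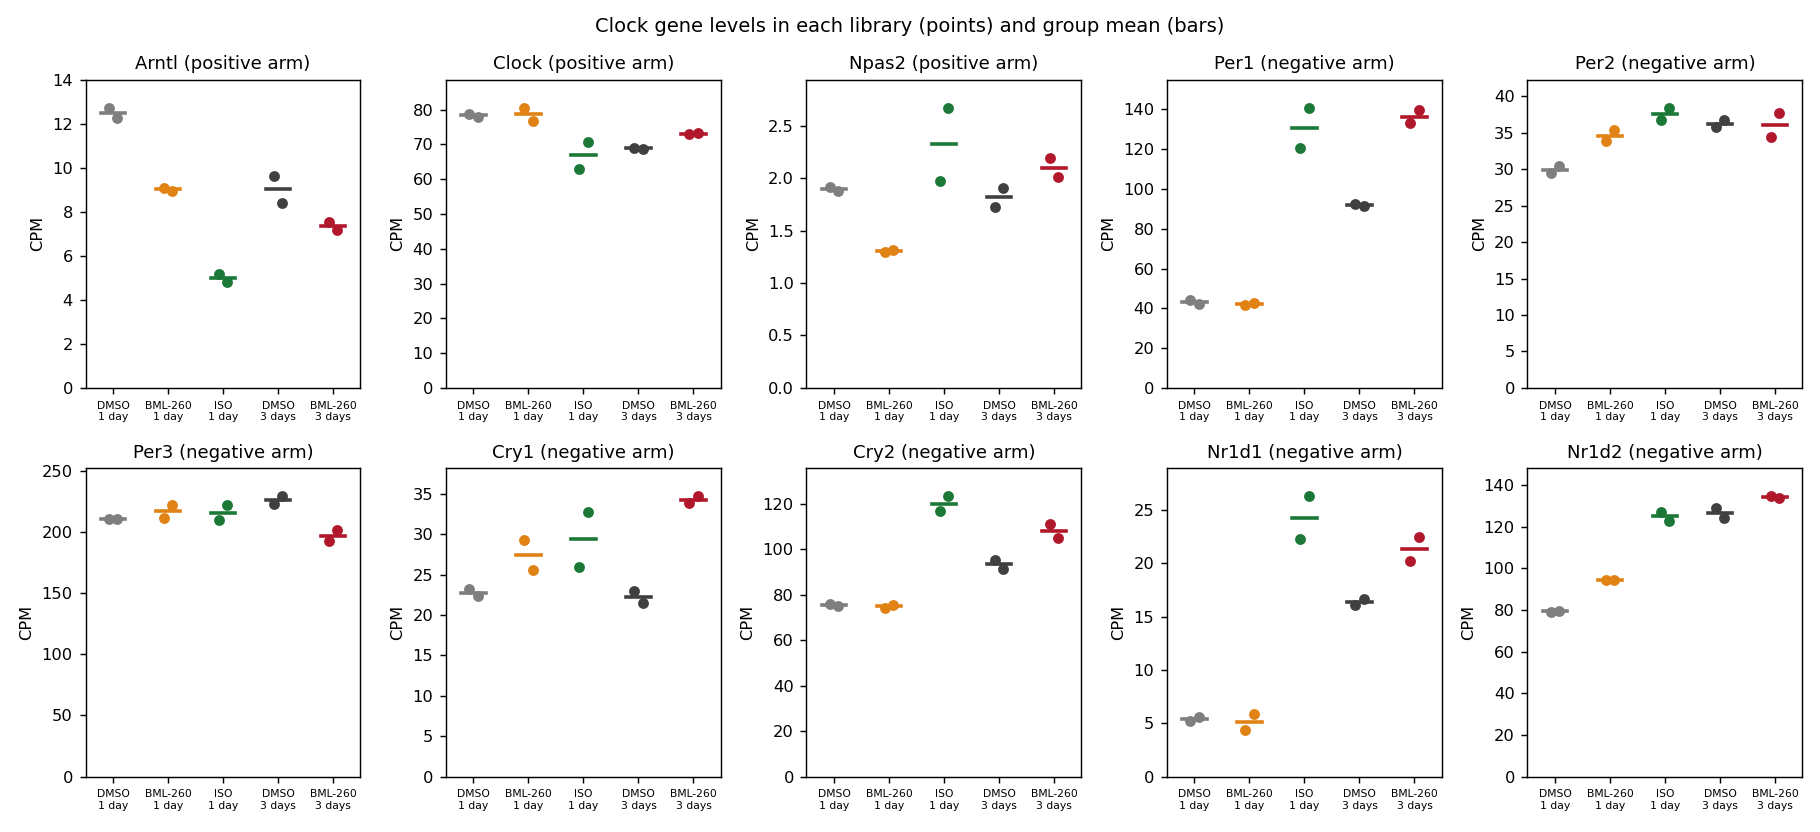
CPM of the 10 clock genes in the 10 libraries, 1 panel per gene with a y axis from 0, where each point is a library and each short line the mean of its group of 2. Nr1d1 and Per1 spread most over the groups, with a highest group mean 4.74 and 3.23 times the lowest, and Per3 least, at 1.15 times.

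Over the 5 groups the highest mean exceeded the lowest by 4.74-fold for Nr1d1, 3.23-fold for Per1 and 2.50-fold for Arntl. The ratio was 1.78 for Npas2, 1.69 for Nr1d2, 1.60 for Cry2 and 1.54 for Cry1. It was 1.25 for Per2, 1.18 for Clock and 1.15 for Per3. The plot of levels by library shows the same ranking: the most abundant Period message was the least variable, and the scarce Nr1d1 and Arntl were among the most variable.

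The first comparison is of DMSO at 3 days with DMSO at 1 day, which shows how the clock genes stood in solvent-treated cells at the 2 times. Arntl and Clock were lower at 3 days, and Per1, Per2, Cry2, Nr1d1 and Nr1d2 were higher. By edgeR's quasi-likelihood test 7 of the 10 genes changed, against 34.9% of all genes tested. In the same libraries the summed preadipocyte and fibroblast markers went from 1425 to 1587 CPM at 1 day to 2801 to 3079 CPM at 3 days, and 7 of the 8 tested rose. Their part in the clock gene values was not tested.

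Nr1d1 had 5.18 and 5.58 CPM in the 1-day DMSO libraries and 16.1 and 16.6 CPM at 3 days. The groups did not overlap, and the log2 change was 1.60 (SE 0.13, edgeR adjusted p = 4.7e-10), or 3.04-fold. Nr1d1 lies on chromosome 11 from 98767932 to 98775333 (GRCm38), and 263 of its exonic bases, 8.55%, overlap exons of Thra on the other strand. Whether the libraries keep strand was not given in the sources used here, so reads there cannot be told apart, and Thra itself rose by 0.15 (edgeR adjusted p = 0.036). Thra was far more abundant, at 129 and 134 CPM with DMSO at 1 day, 143 and 149 CPM at 3 days, and 167 and 177 CPM with ISO. How much of the Nr1d1 counts came from Thra was not tested. Nr1d2, the gene of the other REV-ERB, had 78.9 and 79.7 CPM at 1 day and 129 and 124 CPM at 3 days, 0.67 on the log2 scale (SE 0.05, edgeR adjusted p = 4.2e-11).

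Per1, a Period gene open to acute induction, had 44.4 and 42.1 CPM at 1 day and 92.3 and 91.3 CPM at 3 days. It rose 2.12-fold, by 1.09 on the log2 scale (SE 0.07, edgeR adjusted p = 1.4e-12). Per2 rose by 0.27 (edgeR adjusted p = 0.0031), from 29.4 and 30.5 CPM to 35.8 and 36.7 CPM. Per3, at 211 CPM in both 1-day libraries and 223 and 229 CPM at 3 days, stood at 0.10 (edgeR adjusted p = 0.088). The Period genes thus spanned log2 fold changes from 0.10 to 1.09 in the same libraries.

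Cry2, which makes a repressor of the CLOCK and BMAL1 pair, rose by 0.30 (edgeR adjusted p = 4.4e-05), from 76.1 and 75.0 CPM to 95.2 and 91.4 CPM. Cry1, a repressor of the same pair, had 23.2 and 22.3 CPM at 1 day and 23.0 and 21.5 CPM at 3 days, with overlapping libraries and a log2 fold change of -0.03 (edgeR adjusted p = 0.84). Exons of Cry2 overlap by 295 bases, 4.67%, those of D930015M05Rik, which had 1.23 to 3.10 CPM.

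Of the positive arm, Arntl had 12.7 and 12.3 CPM at 1 day and 9.65 and 8.40 CPM at 3 days. It was 1.38-fold lower at 3 days, -0.47 on the log2 scale (SE 0.12, edgeR adjusted p = 0.0024), with no overlap between libraries. Clock went from 78.7 and 78.0 CPM to 69.0 and 68.7 CPM, -0.19 on the log2 scale (SE 0.06, edgeR adjusted p = 0.011). The call of Clock was lost without DMSO 1 day replicate 1 (edgeR adjusted p = 0.058) and without DMSO 3 days replicate 2 (edgeR adjusted p = 0.052). Npas2, at 1.73 to 1.92 CPM in these 4 libraries, stood at -0.06 and its groups overlapped.

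**Figure D2:**
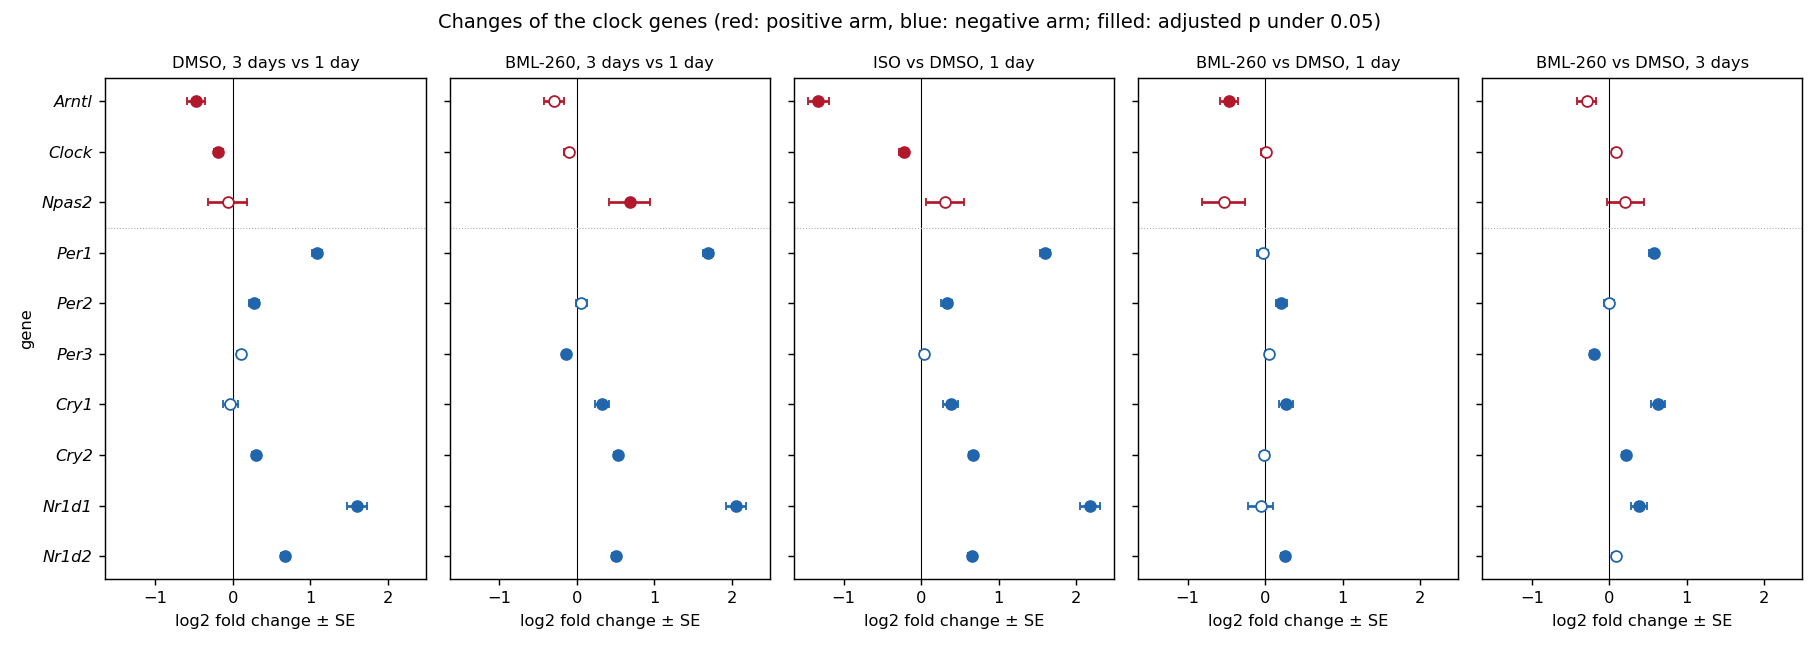
Log2 fold change (x axis, with its SE) of each clock gene in 5 comparisons, red for the positive and blue for the negative arm, with filled points for edgeR adjusted p under 0.05. Per1 stands at 1.09 with DMSO over time, 1.60 with ISO and 0.57 with BML-260 at 3 days, against -0.03 with BML-260 at 1 day, and Arntl lies below 0 in all 5 panels.

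ISO against DMSO at 1 day asks what this agent did to the loop within the same labelled time. Per1, Per2, Cry1, Cry2, Nr1d1 and Nr1d2 were higher with ISO, and Arntl and Clock were lower. These are 8 of the 10 genes by edgeR's test, against 41.7% of all genes tested. The summed preadipocyte and fibroblast markers were at 3160 to 3548 CPM with ISO, and 7 of the 8 tested rose, a part not tested either. ISO and DMSO at 3 days are both compared here with the same DMSO libraries of 1 day, so the values of the 2 comparisons are not independent of each other.

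Nr1d1 had 22.3 and 26.3 CPM with ISO, against 5.18 and 5.58 CPM with DMSO. The rise was 4.53-fold, 2.18 on the log2 scale (SE 0.12, edgeR adjusted p = 3.4e-13), in which the overlapping Thra was at 0.38 (edgeR adjusted p = 2.1e-06). Arntl had 5.20 and 4.82 CPM with ISO, the lowest of the 5 groups and apart from the next, against 12.7 and 12.3 CPM with DMSO. It was 2.50-fold lower, -1.32 on the log2 scale (SE 0.13, edgeR adjusted p = 6.4e-09). Nr1d1 and Arntl therefore moved in opposite directions: the ratio of Nr1d1 to Arntl counts was 0.406 and 0.454 in the DMSO libraries and 4.29 and 5.46 in the ISO libraries.

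Per1 reached 121 and 141 CPM with ISO, 3.03-fold above the 44.4 and 42.1 CPM of DMSO (log2 fold change 1.60, SE 0.06, edgeR adjusted p = 2.6e-16). Cry2 rose to 117 and 123 CPM, by 0.67 (SE 0.05, edgeR adjusted p = 6.5e-11). Nr1d2 rose to 127 and 123 CPM, by 0.66 (SE 0.05, edgeR adjusted p = 3.6e-11). For each of these 3 genes both ISO libraries lay above both DMSO libraries of 1 day.

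Per2 rose by 0.33 (edgeR adjusted p = 0.00041), to 36.8 and 38.5 CPM. Cry1 had 26.0 and 32.8 CPM with ISO and rose by 0.38 (edgeR adjusted p = 0.0016), but without ISO replicate 2 it stood at 0.19 (edgeR adjusted p = 0.16). Clock had 62.9 and 70.8 CPM with ISO and fell by 0.22 (edgeR adjusted p = 0.0022), and without ISO replicate 1 it was at -0.15 (edgeR adjusted p = 0.070). Per3, at 210 and 222 CPM, stood at 0.04 and Npas2, at 1.97 and 2.67 CPM, at 0.31, neither past the test.

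Set against DMSO at 3 days instead, ISO still had lower Arntl and higher Per1, Cry1, Cry2 and Nr1d1: 5 of 10 genes, against 19.9% of all genes tested. Arntl was at -0.85 (SE 0.14, edgeR adjusted p = 5.5e-05) and Per1 at 0.51 (SE 0.06, edgeR adjusted p = 4.7e-07). Nr1d1 was at 0.58 (edgeR adjusted p = 0.00017), Cry2 at 0.36 (edgeR adjusted p = 7.5e-06) and Cry1 at 0.41 (edgeR adjusted p = 0.0021). The Cry1 difference again needed ISO replicate 2, at 0.22 (edgeR adjusted p = 0.18) without it. Nr1d2, at -0.02, and Clock, at -0.04, did not pass, and their libraries overlapped those of DMSO at 3 days.

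BML-260 against DMSO at 1 day asks for the early response to the compound. Arntl was lower and Per2, Cry1 and Nr1d2 were higher, 4 of 10 genes, against 17.9% of all genes tested. Preadipocyte and fibroblast markers summed to 1002 to 1063 CPM with BML-260, with 5 of the 8 tested lower. Arntl had 9.10 and 8.97 CPM with BML-260 and 12.7 and 12.3 CPM with DMSO, -0.47 on the log2 scale (SE 0.12, edgeR adjusted p = 0.0059). Nr1d2 had 94.6 and 94.4 CPM against 78.9 and 79.7 CPM, a rise of 0.25 (SE 0.05, edgeR adjusted p = 0.00064). Both held in each alternative run, and in both the libraries did not overlap.

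Per2 rose by 0.21 (SE 0.07, edgeR adjusted p = 0.041), from 29.4 and 30.5 CPM to 33.9 and 35.3 CPM. Cry1 rose by 0.27 (SE 0.09, edgeR adjusted p = 0.049), from 23.2 and 22.3 CPM to 29.4 and 25.6 CPM. Neither passed with DESeq2 (adjusted p = 0.13 and 0.11) or with upper-quartile scaling (edgeR adjusted p = 0.056 and 0.062). The Per2 call was also lost without any 1 of the DMSO libraries of either time or of the BML-260 libraries of 1 day (edgeR adjusted p = 0.052 to 0.21), with no low-count filter (edgeR adjusted p = 0.066) and with only the groups compared (edgeR adjusted p = 0.062). The Cry1 call was lost without any 1 of the DMSO libraries of either time, the BML-260 libraries of 3 days or BML-260 1 day replicate 1, and without the last it stood at 0.17 (edgeR adjusted p = 0.38). Per1 had 41.9 and 42.7 CPM and Nr1d1 4.40 and 5.85 CPM, with log2 fold changes of -0.03 and -0.06, and both overlapped DMSO. Npas2, at 1.29 and 1.32 CPM against 1.92 and 1.88 CPM, was lower in both libraries with -0.54 on the log2 scale (SE 0.28, edgeR adjusted p = 0.20).

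BML-260 against DMSO at 3 days asks for the later response. At that time Per1, Cry1, Cry2 and Nr1d1 were higher with BML-260 and Per3 was lower, 5 of 10 genes, against 35.5% of all genes tested. Preadipocyte and fibroblast markers summed to 2413 to 2457 CPM with BML-260, with 7 of the 8 tested lower. Per1 had 133 and 140 CPM with BML-260 and 92.3 and 91.3 CPM with DMSO, a rise of 0.57 (SE 0.06, edgeR adjusted p = 1.3e-08). Cry1 had 33.9 and 34.7 CPM against 23.0 and 21.5 CPM, a rise of 1.54-fold or 0.62 on the log2 scale (SE 0.09, edgeR adjusted p = 4.8e-06). Both genes were higher in both BML-260 libraries and held in each alternative run.

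Cry2 rose by 0.21 (SE 0.05, edgeR adjusted p = 0.0016), to 111 and 105 CPM. Nr1d1 rose by 0.38 (SE 0.10, edgeR adjusted p = 0.0042), to 20.2 and 22.5 CPM, and without BML-260 3 days replicate 2 the value was 0.30 (edgeR adjusted p = 0.081). Thra, which overlaps it, was at 0.05 (edgeR adjusted p = 0.54). Per3 fell by 0.20 (SE 0.05, edgeR adjusted p = 0.0015), from 223 and 229 CPM to 192 and 202 CPM, and without DMSO 3 days replicate 2 it was at -0.15 (edgeR adjusted p = 0.064). Arntl had 7.56 and 7.19 CPM against 9.65 and 8.40 CPM, -0.29 on the log2 scale (SE 0.13, edgeR adjusted p = 0.072), which passed with upper-quartile scaling (-0.33, edgeR adjusted p = 0.045). Clock at 0.09, Nr1d2 at 0.08, Npas2 at 0.21 and Per2 at -0.01 did not pass.

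The change of the BML-260 effect between 1 and 3 days was tested as an interaction. It passed for 2 of the 10 genes, against 8.44% of all genes tested: Per1, where the effect was higher at 3 days by 0.60 (SE 0.09, edgeR adjusted p = 0.00018), and Per3, where it was lower by 0.24 (log2 difference -0.24, SE 0.07, edgeR adjusted p = 0.022). The Per1 difference held in each alternative run. The Per3 difference was lost without any of 5 libraries, with adjusted p in edgeR up to 0.15: DMSO 1 day replicate 2, BML-260 1 day replicate 2, DMSO 3 days replicates 1 and 2, and BML-260 3 days replicate 1. Cry1 at 0.35 (edgeR adjusted p = 0.094) and Cry2 at 0.22 (edgeR adjusted p = 0.059) did not pass. Both passed when only the groups compared entered the fit (edgeR adjusted p = 0.032 and 0.026). Cry2 also passed with RLE scaling (edgeR adjusted p = 0.041). With 1 library left out Cry1 stood at 0.25 to 0.45 and Cry2 at 0.18 to 0.28.

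Within BML-260, 3 days against 1 day gave 7 of 10 genes, against 46.4% of all genes tested. Nr1d1 rose by 2.05 (SE 0.13, edgeR adjusted p = 1.2e-12), from 4.40 and 5.85 CPM to 20.2 and 22.5 CPM. Per1 rose by 1.69 (SE 0.06, edgeR adjusted p = 5.7e-17), Cry2 by 0.53 (edgeR adjusted p = 4.1e-09) and Nr1d2 by 0.50 (edgeR adjusted p = 2e-09). Cry1 rose by 0.32 (edgeR adjusted p = 0.0037) and Per3 fell by 0.14 (edgeR adjusted p = 0.017), and neither passed without BML-260 1 day replicate 2 (edgeR adjusted p = 0.098 and 0.17). Per3 did not pass without DMSO 3 days replicate 1 or BML-260 3 days replicate 1 either (edgeR adjusted p = 0.051 and 0.18). Npas2 rose by 0.68 (edgeR adjusted p = 0.038), which was lost with DESeq2 (adjusted p = 0.15), with upper-quartile scaling (edgeR adjusted p = 0.051) and without any 1 of the 4 BML-260 libraries. Arntl stood at -0.29 (edgeR adjusted p = 0.062), and with upper-quartile scaling Arntl and Clock passed, at -0.34 and -0.15 (edgeR adjusted p = 0.033 and 0.031).

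To set the arms side by side, log2 CPM was averaged over the 3 positive and over the 7 negative genes of each library. The level of this difference depends on which genes are abundant, so it is read only between groups, and it was not tested. Positive minus negative was -1.72 ± 0.02 with DMSO at 1 day, -2.13 ± 0.05 with BML-260 at 1 day, -2.53 ± 0.01 with DMSO at 3 days, -2.76 ± 0.08 with BML-260 at 3 days and -2.97 ± 0.02 with ISO (SD, n = 2 each). No library of a group overlapped the next group in this order. Without Clock and Cry2 the groups kept the same order, from -2.89 with DMSO at 1 day to -4.27 with ISO.

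The arms did not contribute alike in the BML-260 groups. At 1 day the positive mean was 3.33 ± 0.02 with BML-260 and 3.65 ± 0.02 with DMSO, while the negative mean was 5.46 ± 0.04 and 5.37 (log2 CPM, SD, n = 2 each). At 3 days the positive mean was 3.41 in both groups, and the negative mean was 6.18 ± 0.04 with BML-260 and 5.94 ± 0.01 with DMSO. With ISO the positive mean was 3.23 ± 0.11 and the negative mean 6.20 ± 0.10. Each gene weighs alike in these means, the scarce Npas2 included. With BML-260 at 1 day Npas2 stood at -0.54 (edgeR adjusted p = 0.20), beside Arntl at -0.47 and Clock at 0.004. At 3 days Npas2 stood at 0.21, Clock at 0.09 and Arntl at -0.29, none past the test. The positive mean thus partly rests on Npas2, and the arms without it were not computed.

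**Figure D3:**
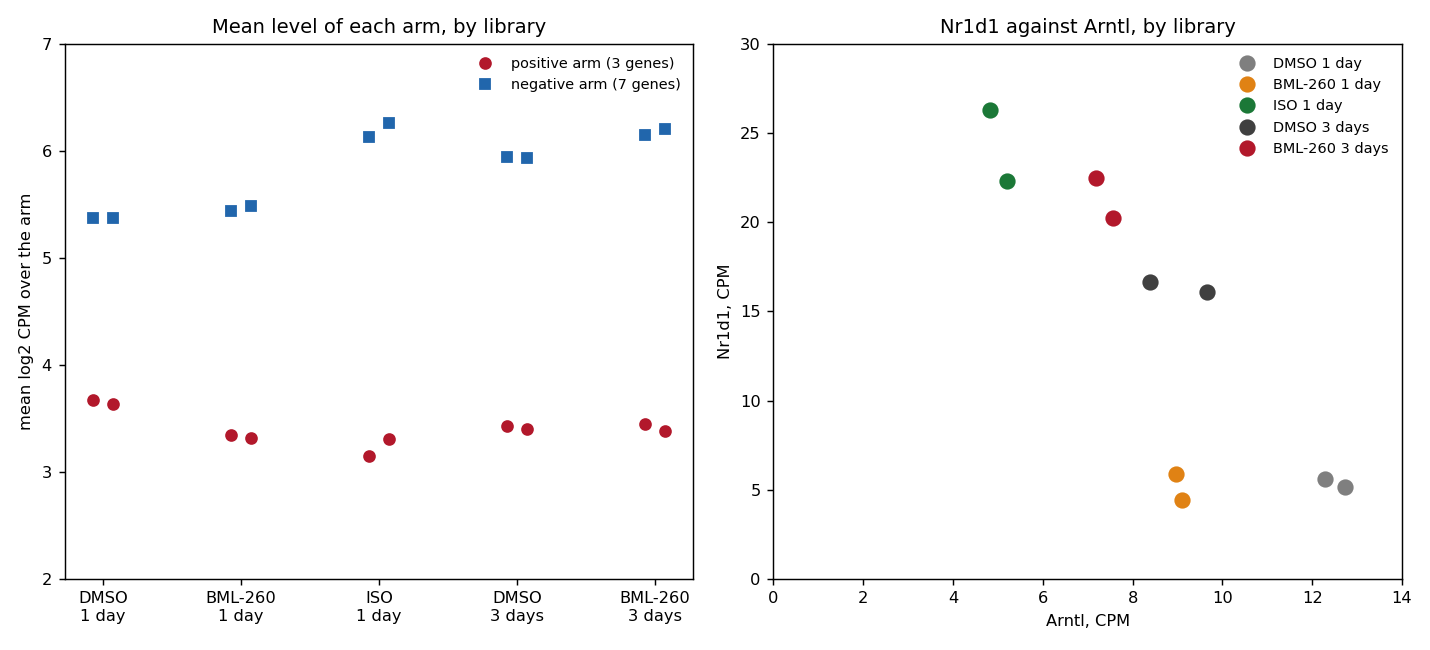
Left, mean log2 CPM of the 3 positive-arm genes (red) and of the 7 negative-arm genes (blue) in each library; right, Nr1d1 against Arntl in CPM, a point per library coloured by group. The ISO libraries have the lowest Arntl (5.20 and 4.82 CPM), and the 1-day DMSO libraries have the highest Arntl (12.7 and 12.3 CPM) with Nr1d1 at 5.18 and 5.58 CPM.

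Relatives within a family did not keep a fixed ratio. The ratio of Per1 to Per3 counts was 0.211 and 0.200 with DMSO at 1 day and 0.198 and 0.192 with BML-260 at 1 day. It was 0.413 and 0.398 with DMSO at 3 days, 0.574 and 0.634 with ISO, and 0.692 and 0.691 with BML-260 at 3 days. The 4 libraries of DMSO and BML-260 at 1 day thus lay below the other 6.

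The Cryptochromes split another way. The ratio of Cry1 to Cry2 counts was 0.305 and 0.298 with DMSO at 1 day and 0.242 and 0.236 with DMSO at 3 days. With BML-260 it was 0.395 and 0.339 at 1 day and 0.305 and 0.330 at 3 days, at each time above both DMSO libraries. ISO lay at 0.223 and 0.266, across the range of DMSO at 3 days. The ratio of Nr1d1 to Arntl counts was 0.484 and 0.653 with BML-260 at 1 day, 1.67 and 1.98 with DMSO at 3 days, and 2.67 and 3.13 with BML-260 at 3 days.

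**Figure D4:**
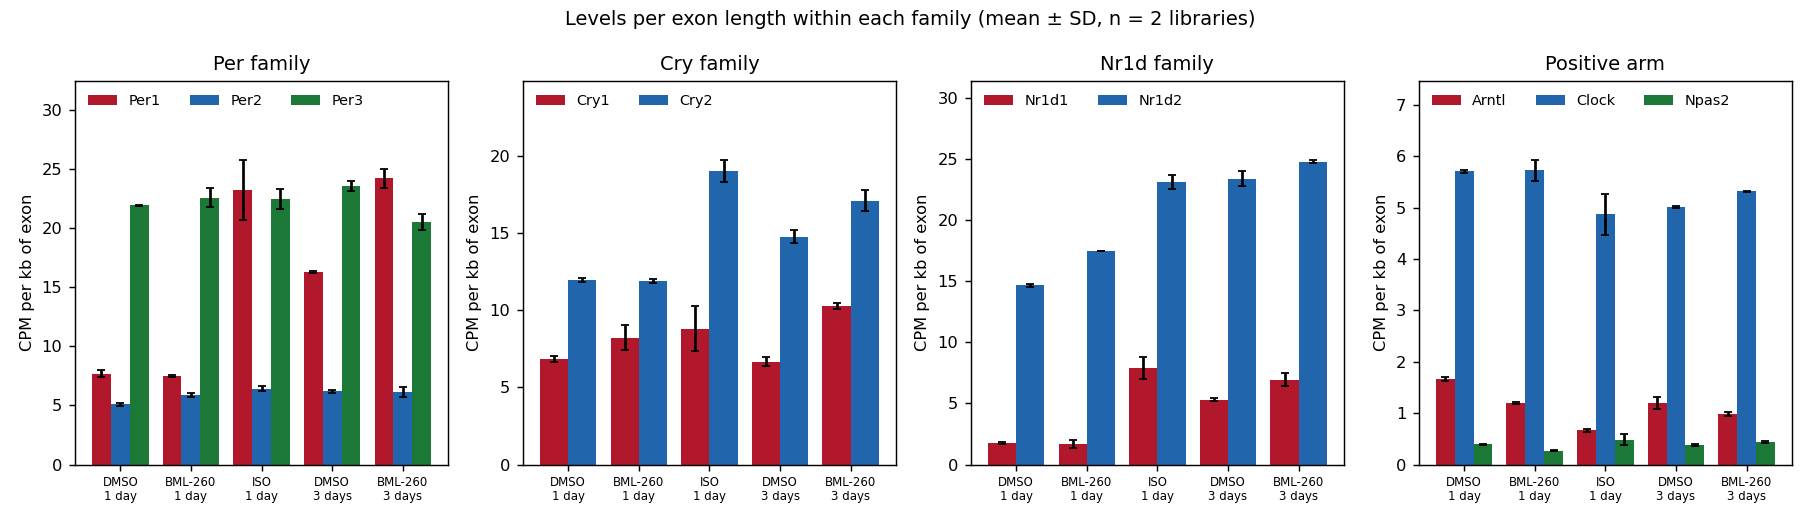
Level in CPM per kilobase of exon within the Per, Cry and Nr1d families and the positive arm, bars for the mean and error bars for the SD of 2 libraries in each group. Per1 stands at 7.68 and Per3 at 21.9 with DMSO at 1 day, and at 24.2 and 20.5 with BML-260 at 3 days, while Cry2 exceeds Cry1 and Nr1d2 exceeds Nr1d1 in all 5 groups.

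The side loops of the clock are made of transcription factors, many of them driven by E-boxes: Dbp, Tef and Hlf, which activate D-box genes, Nfil3, which represses them, Bhlhe40 and Bhlhe41, which compete for E-boxes, and Rora and Rorb, which activate Arntl through the RORE. All 11 genes of this list were tested. Of all genes tested, 34.9% changed with DMSO over time and 41.7% with ISO against DMSO at 1 day. With BML-260 17.9% changed at 1 day and 35.5% at 3 days. With DMSO 8 rose and 0 fell from 1 to 3 days, with a median log2 fold change of 0.43 against 0.0071 over all genes tested. With ISO against DMSO at 1 day 8 rose and 1 fell, with a median of 0.59 against -0.0036. With BML-260 at 1 day 0 rose and 1 fell (median -0.05), and at 3 days 4 rose and 4 fell (median 0.04).

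Bhlhe40 had 145 to 155 CPM with DMSO at 1 day, 294 to 296 CPM at 3 days and 376 to 409 CPM with ISO. It rose by 0.97 over time (edgeR adjusted p = 4.9e-14) and by 1.38 with ISO (edgeR adjusted p = 2e-17). Bhlhe41, at 9.36 to 9.76 CPM with DMSO at 1 day, rose by 0.75 over time, by 1.57 with ISO (edgeR adjusted p = 2.5e-12) and by 0.67 with BML-260 at 3 days (edgeR adjusted p = 2.4e-06). Dbp, a classic output of the loop, rose with ISO from 40.8 to 45.5 CPM with DMSO to 83.9 to 97.7 CPM, by 1.07 (edgeR adjusted p = 5e-11).

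Rora rose by 0.56 over time with DMSO and by 0.59 with ISO. With BML-260 at 3 days Tef fell by 0.28 and Arntl2, a relative of Arntl, by 0.68 (edgeR adjusted p = 2e-05 and 1.6e-05). Nfil3 fell by 0.27 with BML-260 at 1 day (edgeR adjusted p = 0.0039). Rorb, named after its value was seen as the gene that fell with ISO, was at -0.39 (edgeR adjusted p = 0.026). It did not pass with DESeq2 (adjusted p = 0.091), nor without DMSO 1 day replicate 1, DMSO 1 day replicate 2 or ISO replicate 1 (edgeR adjusted p = 0.096, 0.078 and 0.15).

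**Figure D5:**
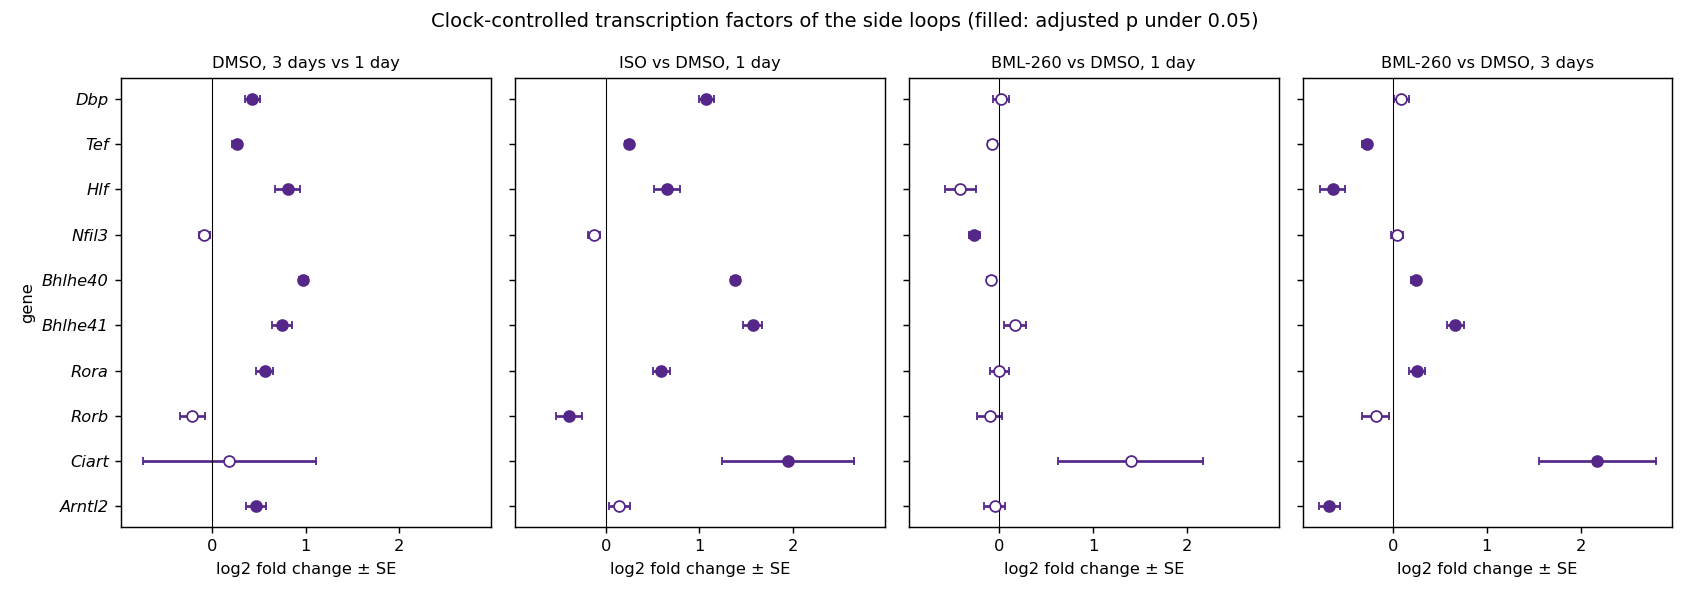
Log2 fold change (x axis, with its SE) of 10 side-loop transcription factors in 4 comparisons, with filled points for edgeR adjusted p under 0.05. Bhlhe40 and Bhlhe41 stand at 0.97 and 0.75 over time and at 1.38 and 1.57 with ISO, and with BML-260 at 3 days Bhlhe41 stands at 0.67 and Arntl2 at -0.68.

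Clock proteins are timed by kinases and ubiquitin ligases, of which 18 genes were tested. The counts stand beside shares over all genes tested of 34.9% with DMSO over time and 41.7% with ISO. With BML-260 these shares were 17.9% at 1 day and 35.5% at 3 days. With DMSO over time 6 rose and 2 fell (median 0.07): Csnk2a2, a subunit of casein kinase CK2, rose by 0.45 and Prkaa1, a catalytic subunit of AMP-activated kinase, by 0.35, while the deubiquitinase gene Usp2 fell by 0.60. With ISO 6 rose and 0 fell (median 0.08), among them Csnk1e, a casein kinase that acts on PER, by 0.49, Csnk2a2 by 0.51, Csnk2a1 by 0.25 and Usp7 by 0.24. With BML-260 at 3 days 5 rose and 1 fell (median 0.08), or 4 and 2 with upper-quartile scaling: Csnk1e rose by 0.36, Gsk3a by 0.25 and Fbxw11 by 0.23, and Prkaa1 fell by 0.45. At 1 day 1 rose, Csnk2a1 by 0.17, which did not pass without BML-260 1 day replicate 1 (edgeR adjusted p = 0.19) or without DMSO 1 day replicate 2 (edgeR adjusted p = 0.29).

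Per1 is also induced from outside the loop, by CREB after cAMP and by the glucocorticoid receptor, and 2 lists hold other targets of these inputs. The part of either input in the Per1 values was not tested. For both lists the shares over all genes tested were 34.9% with DMSO over time and 41.7% with ISO. With BML-260 they were 17.9% at 1 day and 35.5% at 3 days. Of 13 cAMP and CREB early genes tested, 6 rose and 2 fell with DMSO over time (median 0.22), with Sik1 at 0.83, Junb at 0.68, Egr1 at 0.63 and Id1 at -1.27. With ISO 3 rose and 5 fell (median -0.24): Sik1 was at 0.99 and Pde4d at 0.71, while Dusp1 was at -0.95 and Id1 at -1.30. With BML-260 at 3 days 0 rose and 7 fell (median -0.36), with Nr4a1 at -1.10, Fos at -0.64, Egr1 at -0.62 and Dusp1 at -0.49. At 1 day 1 rose and 4 fell (median -0.17), among them Egr1 at -0.31 and Irs2 at -0.38. Irs2 did not pass without DMSO 1 day replicate 2, at -0.23 (edgeR adjusted p = 0.16), or without BML-260 1 day replicate 1, at -0.27 (edgeR adjusted p = 0.064).

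Of 12 glucocorticoid receptor targets 7 rose and 0 fell with DMSO over time (median 0.26), with Pdk4 at 1.24, Angptl4 at 0.74, Errfi1 at 0.50 and Zbtb16 at 0.32. With ISO 7 rose and 1 fell (median 0.24), or 6 and 2 with upper-quartile scaling, with Lcn2 at 1.12, Pdk4 at 0.75, Mt2 at 0.54 and Klf9 at 0.29. With BML-260 at 3 days 3 rose and 4 fell (median 0.01), or 4 and 3 with RLE scaling, with Lcn2 and Mt2 at 0.42 each, Angptl4 at -1.15 and Errfi1 at -0.84. At 1 day 1 rose and 3 fell (median -0.10): Mt2 was at 0.26, Errfi1 at -0.45, Lcn2 at -0.32 and Angptl4 at -0.27. Angptl4 did not pass with DESeq2 (adjusted p = 0.35), without DMSO 1 day replicate 2 (edgeR adjusted p = 0.31) or without BML-260 1 day replicate 1, where it stood at -0.12 (edgeR adjusted p = 0.45). Lcn2 did not pass without DMSO 1 day replicate 1 or BML-260 1 day replicate 1 (edgeR adjusted p = 0.088 and 0.16), nor Mt2 without BML-260 1 day replicate 2 (edgeR adjusted p = 0.054). With all libraries the values named in these lists passed edgeR's test.

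Other marker lists moved with the groups as well. Smooth muscle and pericyte markers summed to 381 to 385 CPM with DMSO at 1 day, 411 to 422 CPM at 3 days, 361 to 393 CPM with ISO, and 278 to 297 and 248 to 272 CPM with BML-260 at 1 and 3 days. Brown adipocyte markers, mostly Fabp4, summed to 9699 to 9842 CPM with DMSO at 1 day, 7285 to 7439 CPM at 3 days, 6698 to 6980 CPM with ISO, and 13066 to 13551 and 7592 to 7783 CPM with BML-260 at 1 and 3 days. Of the 11 brown adipocyte markers tested, 4 were higher and 5 lower with BML-260 at 1 day (median log2 fold change -0.15). At 3 days 4 were higher and 6 lower (median -0.28). Over all genes tested 17.9% and 35.5% changed at these times. With DMSO over time 3 markers rose and 5 fell, and with ISO against DMSO at 1 day 2 rose and 7 fell. Shares over all genes tested were 34.9% and 41.7% in these 2 comparisons. The part of these cell types in the clock gene values was not tested.

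Genes whose log2 CPM followed Nr1d1 most closely over the 10 libraries, among 9660 other genes of at least 10 CPM, were Tmbim1 (Pearson r 0.994), Tmem194 (0.992), Eif4b (0.992), Bhlhe40 (0.991) and Ctsz (0.991). Those closest to Arntl were Prpf31 and Luzp1 (0.961 each), Klhl18 (0.941), Eif3l (0.939) and Slc35a5 (0.939). These describe 10 libraries that share groups and carry no p. Among the clock genes themselves r with Nr1d1 was 0.987 for Per1, 0.958 for Cry2, 0.921 for Nr1d2 and 0.770 for Per2. It was 0.434 for Cry1 and -0.0934 for Per3. Of the positive arm it was -0.810 for Clock, -0.782 for Arntl and 0.723 for Npas2.

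The authors' deposited tables list genes past a threshold of their own. The authors' deposited table for BML-260 and DMSO at 1 day lists, of the clock, Nr1d2 at a log2 fold change of 0.23. At 3 days the authors' deposited table lists 5 of the clock: Per1 at 0.57, Cry1 at 0.58, Cry2 at 0.22, Nr1d1 at 0.35 and Per3 at -0.18. In the authors' deposited table of both times together Cry1 was the clock gene listed, at -0.42, where the counts show the sign to be DMSO relative to BML-260. The authors' deposited tables that include ISO list Arntl, at 0.52 for BML-260 at both times and ISO. Arntl is at 0.61 with DMSO added, and at 0.37 for the 3-day groups and ISO. A positive sign here is not a rise with ISO. Mean Arntl was lowest with ISO, at 5.01 CPM, against 7.38 to 12.5 CPM in the other groups. Cry2 is listed in each of the deposited tables with ISO, and Nr1d1 in that of the 3-day groups and ISO. Of the clock gene values in the deposited tables with ISO, only Arntl at 0.52 and 0.61 was under 0.05 in the authors' adjusted p.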

How the data were processed

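Whole-number counts per gene symbol were deposited by the authors for all 10 libraries. In the authors' further deposited tables, per the file headers, stand a log2 fold change, its standard error and test statistic (each a score), and a p-value with its adjusted form. The submitters' processing notes name TopHat2 2.1.1, bcl2fastq 2.17.1.14, DESeq2 and bedtools, and mm9 and mm10 as builds without their roles. How counting treated strand and which annotation it used were not given in the sources used here, and 26 symbols had turned into dates (0.242% to 0.264% of counts).

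Groups follow the labels. Tests were run in R 4.3.3 with edgeR 4.0.16: TMM scaling, filterByExpr with a minimum count of 10 and minimum total of 15, a quasi-likelihood fit of all 5 groups (5 residual degrees of freedom, common dispersion 0.00115) and p adjusted by Benjamini and Hochberg's method over 15212 genes. A gene is said to have changed at adjusted p under 0.05, and the SE is the absolute log2 fold change over the square root of F. CPM use TMM-scaled library sizes, and log2 CPM a prior count of 2. An exact permutation test of 2 against 2 libraries cannot go below p = 0.333 (two-sided). The fit was tested on simulated data. Genes named are the clock genes, up to 4 list genes of smallest p per comparison, the 5 genes most like Arntl and Nr1d1, and Ucp1, Adipoq and Fabp4. Of the list genes 2 are counted but not reported here by name. The clock genes and lists were chosen with earlier results of these data known. Replicate numbers did not pair libraries: same-number deviations correlated at -0.0344 to 0.0577. Alternatives were RLE and upper-quartile scaling, DESeq2 1.42.0, no filter, only the groups compared, a replicate block and each library left out, and for the named list genes these were chosen after seeing the data. Counts limit precision, most for Npas2.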

Additional observations from a re-analysis of the deposited data

Results flagged for a closer look

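The response of 2 clock genes to BML-260 differed between times by edgeR's interaction test. The BML-260 effect on Per1 was higher at 3 days by 0.60 on the log2 scale (SE 0.09, edgeR adjusted p = 0.00018). BML-260 over DMSO was 133 and 140 over 92.3 and 91.3 CPM at 3 days, and 41.9 and 42.7 over 44.4 and 42.1 CPM at 1 day. Per3 differed by -0.24 (SE 0.07, edgeR adjusted p = 0.022), from 192 and 202 over 223 and 229 CPM at 3 days to 212 and 223 over 211 and 211 CPM at 1 day. The Per3 difference did not pass without any of 5 libraries, where edgeR's adjusted p was 0.062 to 0.15.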

How the results depend on the processing

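Of 70 clock gene changes 38 passed the test, 26 of these passed under every alternative, and none of the 38 changed sign. The 70 pair each clock gene with each comparison, and the comparisons share libraries. Over all genes tested, the share that changed ran from 8.44% to 46.4% over these comparisons. The 20 sign changes were all in changes that had not passed. Clock with BML-260 at 1 day was -0.00907 with upper-quartile scaling and -0.0022 with only the groups compared. Per2 with BML-260 at 3 days was 0.0125 with RLE scaling, 0.0119 with DESeq2 and 0.0012 with only the groups compared. Per3 with ISO was -0.0151 with upper-quartile scaling. Leaving out 1 library at a time gave -0.0309 to 0.0452 for Clock, -0.0713 to 0.00638 for Per1, -0.0225 to 0.000224 for Cry2 and -0.28 to 0.12 for Nr1d1 with BML-260 at 1 day, -0.0757 to 0.0579 for Per2 at 3 days, and -0.00207 to 0.0736 for Per3 with ISO. It gave -0.13 to 0.0404 for Clock and -0.0428 to 0.0193 for Nr1d2 with ISO against DMSO at 3 days, -0.0882 to 0.00736 for Cry1 with DMSO over time and -0.00917 to 0.124 for Per2 with BML-260 over time.

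The clock genes called with BML-260 at 1 day were 2 with upper-quartile scaling and with DESeq2, and 2 to 4 with 1 library left out. For the difference between times they were 4 with only the groups compared and 1 to 3 with 1 library left out, and for BML-260 over time 4 to 7. Over all genes DESeq2 called 757 for the difference and 1993 for ISO against DMSO at 3 days, against 1284 and 3026. Leaving out libraries gave 1235 to 2843 genes for BML-260 at 1 day, 659 to 1371 for the difference and 1469 to 3073 for ISO against DMSO at 3 days. The share of higher genes went with upper-quartile scaling from 48.5% to 38.5% for BML-260 at 3 days, from 51.3% to 40.3% for ISO and from 53.5% to 40.4% for ISO against DMSO at 3 days, and for the difference from 46.6% to 59.8% with only the groups compared. The cause was not tested.

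Without Clock and Cry2 the difference of the arms was -2.89 and -3.49 with DMSO and BML-260 at 1 day, -4.27 with ISO, and -3.77 and -4.06 with DMSO and BML-260 at 3 days. With a prior count of 0.5 it was -2.99 with ISO and -2.55 with DMSO at 3 days. The replicate block, where numbers do not pair the libraries, called 4, 5, 2, 8, 5, 7 and 7 clock genes for BML-260 at 1 day, at 3 days, the difference, ISO, ISO against DMSO at 3 days, DMSO over time and BML-260 over time, and over all genes 2898, 5555, 1474, 6498, 3190, 5455 and 7157. Where 1 library was left of a group, it was assumed to vary like the others. Npas2, at 22 counts at the lowest, was limited by depth.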

Other observations

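Partners of the clock proteins and outputs of the clock were held in 2 further lists. Over all genes tested 34.9% changed with DMSO over time and 41.7% with ISO. With BML-260 17.9% changed at 1 day and 35.5% at 3 days. Of 15 partner genes tested, 4 rose and 1 fell with DMSO over time (median 0.05), with the methyltransferase gene Kmt2a at 0.39 and Sfpq, whose protein binds PER complexes, at -0.21. With ISO 4 rose and 4 fell (median -0.06), or 3 and 7 with upper-quartile scaling, with Ppargc1a at -0.50 and Sfpq at -0.44. With BML-260 0 rose and 6 fell at 1 day and 2 rose and 4 fell at 3 days: Sfpq was at -0.29 and -0.34, and Timeless at -0.24 and -0.38.

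Of 12 output genes tested, 2 rose and 3 fell with DMSO over time, or 1 and 3 with upper-quartile scaling, with Nampt, which makes the NAD precursor that feeds sirtuins, at -0.23 and the nuclear receptor gene Ppara at 0.21. Ppara did not pass without DMSO 3 days replicate 2 (edgeR adjusted p = 0.057). With ISO 4 rose and 3 fell, or 3 and 4 with upper-quartile scaling, with Pnp at 0.32 and Ppara at -0.33. With BML-260 2 rose and 1 fell at 1 day, or 2 and 2 with upper-quartile scaling, with Ppara at 0.35, and 2 rose and 5 fell at 3 days, with the cell cycle inhibitor Cdkn1a at 0.34 and Gpam, an enzyme of triglyceride synthesis, at -0.40. Except where stated, the values named passed edgeR's test. Proliferation markers summed to 1862 to 1958 CPM with DMSO at 1 day, 2046 to 2053 CPM with ISO, 1934 to 1965 CPM with DMSO at 3 days, and 1683 to 1709 and 1855 to 1868 CPM with BML-260 at 1 and 3 days.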
